A study of Mus musculus with 32 samples.

Results

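The genes described are 10 members of the AP-1 and immediate early group, taken by symbol from a count table of 24411 genes, and each of them is also listed in the second table of 24421 genes. They are Fos, Fosb and Fosl2, Jun, Junb and Jund, Egr1 and Egr2, Atf3, and Ier2. On mm9, the build of the counts, the genes lie at chr12:86814851-86818219 (Fos), chr7:19888045-19895394 (Fosb), chr5:32438845-32460212 (Fosl2), chr4:94715727-94718913 (Jun), chr8:87500808-87502647 (Junb), chr8:73221638-73224515 (Jund), chr10:67000617-67004936 (Egr2), chr1:192994176-193007212 (Atf3) and chr8:87185230-87186751 (Ier2), and Egr1 on chromosome 18. They were followed in the monocyte graft and in cells sorted as engrafted macrophages from the colon and ileum on days 4, 8 and 12. Such cells from the colon of a second kind of recipient were also followed. The graft (n = 3) was Ly6C+ CD115+ bone marrow monocytes of Cx3cr1 gfp/+ donors, which received no diphtheria toxin (DTx). Its labels give the organ as blood and the CD11c-DTR genotype. The recipients were irradiated C57BL/6 mice of 7 to 10 weeks, reconstituted with bone marrow whose cells carry the DTx receptor (DTR), either CD11c-DTR (the Itgax-DTR/GFP transgene, driven by the Itgax promoter) or CX3CR1-DTR. All recipients were injected with DTx to remove such cells, so no engrafted group lacks these treatments. The engrafted cells came from the colon on day 4 (n = 3), day 8 (3 libraries used of 4) and day 12 (n = 4), from the ileum on the same days (n = 4 each), and from CX3CR1-DTR colon on day 14 (n = 6). The study's sample table lists fewer repeats for the last group than there are labelled libraries. The labels give the sort of all engrafted cells as CD45+ CD11b+ CD64+ Ly6C- MHCII+, whereas the methods describe a sort of graft-derived cells by CD45.1 and GFP, and the titles of the CX3CR1-DTR libraries name GFP alone.

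Gut tissue was shaken at 37°C in EDTA for 30 min and then in collagenase for 40 min for the colon and 20 min for the ileum, whereas marrow was flushed and spun on Ficoll without digestion. Digestion is therefore part of every comparison with the graft, and its length part of every comparison of colon with ileum. Its effect and that of the tissue cannot be told apart in these groups.

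Immediate early genes are transcribed within minutes of a stimulus by factors already in the cell, such as serum response factor (SRF), the ternary complex factors, and CREB, which MAP kinases switch on. FOS and JUN proteins pair to form AP-1, which binds DNA at AP-1 sites, and EGR proteins bind GC-rich sites. The group responds to growth factors, to microbial products and to stress, enzymatic dissociation of tissue included, and Egr1 and Egr2 also belong to the programme of monocytes that become macrophages.

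To show what lies next to the starts of genes that did and did not change, the 250 bases before the start are given for Egr2, Fosb and Jun, which were higher in the engrafted cells, and for Fosl2 and Fos, which were not. They are from RefSeq on GRCm38.p6, whose table held a promoter for 8 of the 10 members and none for Egr1 and Ier2. The positions are chr10:67537619-67537868 on the plus strand for Egr2, chr7:19310046-19310295 on the minus strand for Fosb, chr5:32136222-32136471 on the plus strand for Fosl2, chr4:95052223-95052472 on the minus strand for Jun and chr12:85473640-85473889 on the plus strand for Fos. Capitals mark a CArG box, the sequence bound by SRF, in Egr2, an EGR site (GCGNGGGCG) in Fosb and Fosl2, and a CRE-like site (TGACNTCA) in Jun.
Egr2: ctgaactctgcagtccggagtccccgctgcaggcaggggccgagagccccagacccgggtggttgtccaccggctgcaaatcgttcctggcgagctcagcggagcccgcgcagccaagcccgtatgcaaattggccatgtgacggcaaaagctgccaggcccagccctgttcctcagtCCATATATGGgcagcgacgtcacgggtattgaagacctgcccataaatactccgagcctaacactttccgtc
Fosb: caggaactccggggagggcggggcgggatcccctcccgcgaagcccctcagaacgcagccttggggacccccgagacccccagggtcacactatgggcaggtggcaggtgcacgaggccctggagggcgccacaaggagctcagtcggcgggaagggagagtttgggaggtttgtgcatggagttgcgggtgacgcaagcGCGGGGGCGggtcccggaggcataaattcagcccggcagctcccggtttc
Fosl2: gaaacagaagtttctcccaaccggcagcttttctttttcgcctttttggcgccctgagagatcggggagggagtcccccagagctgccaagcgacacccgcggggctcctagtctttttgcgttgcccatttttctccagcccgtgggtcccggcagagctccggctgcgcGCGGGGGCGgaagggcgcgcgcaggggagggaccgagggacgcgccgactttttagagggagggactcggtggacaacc
Jun: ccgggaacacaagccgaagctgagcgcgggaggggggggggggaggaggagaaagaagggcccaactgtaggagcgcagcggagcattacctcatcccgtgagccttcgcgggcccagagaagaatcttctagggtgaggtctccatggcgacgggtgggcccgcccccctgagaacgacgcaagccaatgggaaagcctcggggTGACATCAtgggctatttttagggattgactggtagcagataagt
Fos: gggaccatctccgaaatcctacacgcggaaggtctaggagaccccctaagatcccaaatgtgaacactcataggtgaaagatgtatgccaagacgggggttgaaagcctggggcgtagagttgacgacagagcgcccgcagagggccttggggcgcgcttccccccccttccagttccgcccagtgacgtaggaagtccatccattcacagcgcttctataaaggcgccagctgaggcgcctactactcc
Both strands were searched for these motifs and for the CRE (TGACGTCA) and the AP-1 site (TGANTCA), of which the CRE is one form of the CRE-like site. A CArG box was found in 4 of the 5 Egr2 promoters of the table, at position -72 from the start in the one shown, and in 1.47% of all 32851 promoters. The Egr2 windows that start at 67537619, 67537620 and 67537680 overlap and share the box shown, so these are not 4 separate boxes. The EGR site begins at -50 in Fosb and at -79 in Fosl2, and 4.7% of all promoters held one. The CRE-like site of Jun begins at -45, and 7.49% of all promoters held one. No CRE, held by 1.55% of promoters, and no AP-1 site, held by 6.75%, was found in the windows of the members. The windows of Fos, Junb, Jund and Atf3 held none of these motifs, which says only that these letters are absent from the windows. A match is a description and not a measured site.

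The libraries of graft and CD11c-DTR recipients that were used held 591817 to 5228664 reads on genes, and 1 read equalled 1.17 to 9.22 normalized reads, which are counts per 10000000 mapped reads. Engrafted libraries went against their label in part. Summed over 11 epithelial markers, reads per 10000000 reads on genes were 49 to 86 in the graft, 170189 to 247104 in CD11c-DTR colon, 33678 to 215269 in the ileum and 176229 to 216808 in CX3CR1-DTR colon. The sum of 7 pan-leukocyte markers ran the other way, at 121040 to 138779, 2765 to 13146, 8825 to 68789 and 2658 to 8106 in the same order. The 10 macrophage markers summed to 18253 to 23675 in the graft, 6338 to 38286 in CD11c-DTR colon, 17275 to 176109 in the ileum and 11664 to 25822 in CX3CR1-DTR colon. In such bulk libraries fewer cells of a type and less RNA per cell cannot be told apart. Colon day 8 replicate 1 matched no column of the study's source data and was left out. The ileum libraries of day 4 in experiment 1 (replicates 2 and 3) had epithelial sums of 207796 and 215269 against 69266 and 76855 in the other two.

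**Figure D1:**
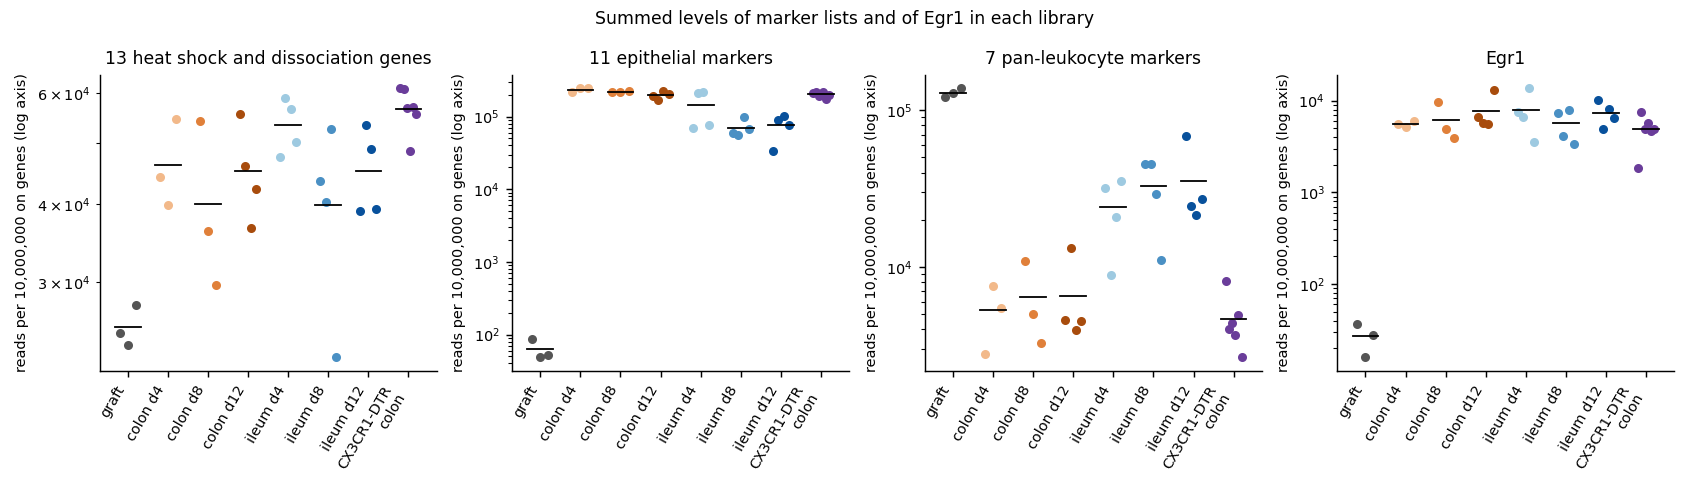
Summed reads per 10000000 reads on genes (log axes) of the heat shock and dissociation genes, the epithelial markers and the pan-leukocyte markers, and the level of Egr1, in each library (points) with the mean of each group (line). The graft sits lowest for epithelial markers and Egr1 and highest for leukocyte markers, and its heat shock sums lie below those of all engrafted libraries except 1 of ileum day 8, at 22820.

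Compared with the graft, both Egr genes, Fosb, Jun and Jund were called higher in the engrafted libraries of both segments on every day. Fos, Fosl2 and Ier2 did not pass the test in any group of CD11c-DTR recipients. Egr1, of which the graft held a few reads, was fitted 229-fold higher in the colon and 316-fold higher in the ileum on day 4. Of the 10 members, 5 were called higher in the colon on day 4, against 35.9% of the 11842 genes tested. On days 8 and 12 in the colon 6 were called higher, against 35.2% and 37.7% of genes. In the ileum 7 were called higher on day 4 (36.2% of genes), 6 on day 8 (34.3%) and 6 on day 12 (35.9%), and no member was called lower in these 6 comparisons. The median log2 fold change of the members was 1.61, 1.72 and 2.04 in the colon on days 4, 8 and 12 and 1.97, 1.30 and 1.48 in the ileum, beside medians over all genes tested of 0.20 to 0.24. A call is an adjusted p under 0.05 in edgeR's quasi-likelihood test with Benjamini-Hochberg adjustment over all genes tested. On day 4 in the colon 4252 genes were called higher and 2897 lower by edgeR, against 3021 higher and 3843 lower by limma on values per mapped read. All 10 members passed the filter on low counts, Egr1 and Egr2 only through the engrafted libraries. Epithelial markers and the heat shock and dissociation genes moved with these comparisons, and their part in the members' changes was not tested.

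**Figure D2:**
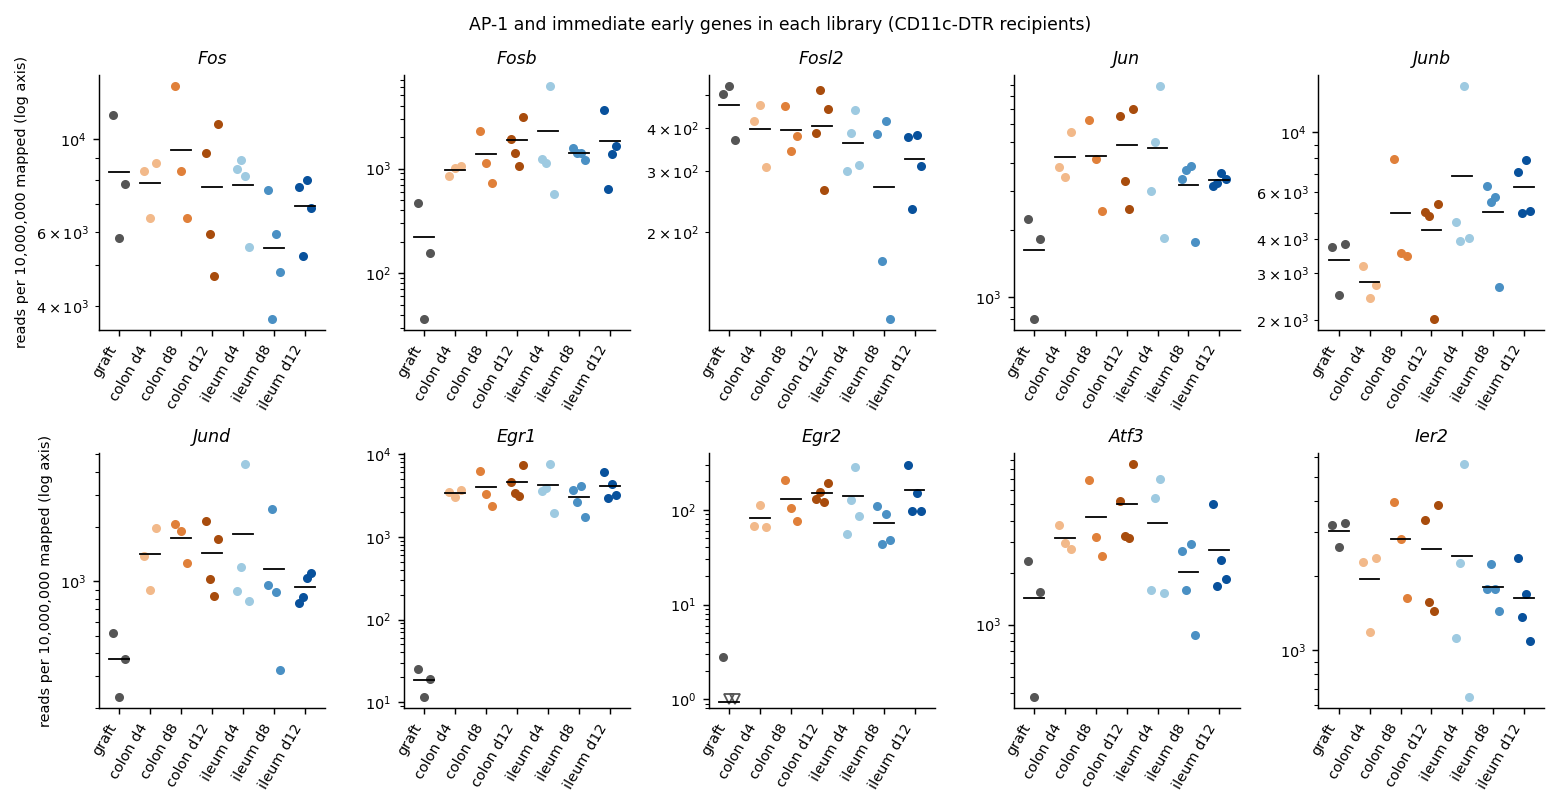
Reads per 10000000 mapped reads (log axes) of each member in each library (points) of the graft and of CD11c-DTR recipients, with the mean of each group (line). Open triangles stand for libraries with no Egr2 read. Egr1 and Egr2 of all 22 engrafted libraries lie above all graft libraries, while on this scale the Fosl2 values of none do.

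Of the Fos family, Fosb encodes a FOS protein that pairs with JUN proteins. Its normalized reads in the 3 graft libraries were 472, 36.8 and 157. In the colon they were 849.6, 1008 and 1059 on day 4, 2289, 1140.4 and 727 on day 8, and 1934, 1404, 1066 and 3127 on day 12. In the ileum they were 1245, 1125, 6129 and 571 on day 4, 1586, 1409, 1419 and 1210.0 on day 8, and 3609, 643, 1378 and 1655 on day 12. All 22 engrafted libraries were above all graft libraries, although the graft itself spanned 12.8-fold. The Fosb log2 fold change against the graft was 2.50 ± 0.82 (SE) on day 4 and 3.47 ± 0.83 on day 12 in the colon, and 3.90 ± 0.84 and 3.58 ± 0.83 in the ileum (adjusted p = 0.0112, 0.000857, 0.000409 and 0.000796, edgeR). On day 4 in the colon the Fosb call was lost without graft replicate 2, at 1.97 (adjusted p = 0.0554, edgeR). The highest Fosb value of ileum day 4 came from replicate 3, the shallowest library used, and without it the log2 fold change of Fosb in that group was 2.58 (adjusted p = 0.00248, edgeR).

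Fos, the founding member of the family, was already high in the undigested graft, with 11441, 5817 and 7839 normalized reads. The 22 engrafted libraries had 3728 to 13396 Fos reads with a median of 7626, and 1 of them was above all graft libraries on this scale. Per 10000000 reads on genes the graft reached 16651. The highest libraries of colon days 8 and 12 and ileum day 4 lay above that (20782, 19278 and 18074). The Fos log2 fold change was 0.24 ± 0.35 in the colon and 0.35 ± 0.33 in the ileum on day 4 (adjusted p = 0.567 and 0.39, edgeR). Fosl2, which encodes FRA2, had 505, 531 and 371 normalized reads in the graft. The engrafted libraries had 112 to 517, and 9 of them were below all graft libraries on this scale. Per 10000000 reads on genes Fosl2 was 539 to 753 in the graft and 219 to 877 in the engrafted libraries, so that some lay above the graft. Its log2 fold change on day 4 was 0.12 ± 0.35 in the colon and 0.07 ± 0.33 in the ileum (adjusted p = 0.79 and 0.868, edgeR). The sign of each of these 4 differences turned under at least 1 alternative setting, so no direction is given for Fos and Fosl2.

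Of the Jun family, Jun encodes the classical partner of FOS. It had 2240.0, 802 and 1831 normalized reads in the graft. In the colon there were 3859, 3459.7 and 5519 on day 4, 6227, 4186 and 2444 on day 8, and 6526, 3310.0, 2489 and 6981 on day 12. In the ileum there were 3001, 4991, 8866 and 1854 on day 4, 3397, 3732, 3892 and 1774 on day 8, and 3158, 3247, 3629.5 and 3392 on day 12. All colon libraries lay above the graft, as did all but a day 4 and a day 8 library of the ileum, which fell within its range. The log2 fold change of Jun on day 4 was 1.73 ± 0.49 in the colon and 2.01 ± 0.48 in the ileum (adjusted p = 0.00431 and 0.001, edgeR). On day 12 it was 1.90 ± 0.48 in the colon and 1.52 ± 0.47 in the ileum (adjusted p = 0.00136 and 0.00815, edgeR). The ileum call of Jun on day 4 was lost with the day 4 libraries of experiment 2 alone (0.98, adjusted p = 0.0606, edgeR). Without graft replicate 2, whose Jun was lowest, the ileum calls were lost on day 8 (1.15, adjusted p = 0.0712, edgeR) and day 12 (1.18, adjusted p = 0.0614).

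Jund encodes a JUN protein that is also present in resting cells. The graft had 519, 231 and 373 normalized reads of Jund. The colon had 1373, 898 and 1972 on day 4, 2080.1, 1887 and 1258 on day 8, and 2137, 1031, 831 and 1705 on day 12. The ileum had 885, 1193, 4405 and 777 on day 4, 957, 2495, 870.1 and 326 on day 8, and 756, 819, 1048 and 1112 on day 12. Of the 22 engrafted libraries 21 were above all graft libraries, and the exception was an ileum library of day 8. The log2 fold change of Jund was 2.24 ± 0.60 on day 4 and 2.25 ± 0.58 on day 12 in the colon (adjusted p = 0.00261 and 0.00172, edgeR). In the ileum it was 2.78 ± 0.60 and 1.81 ± 0.57 (adjusted p = 0.000364 and 0.00954, edgeR), and the day 12 call of Jund was lost without graft replicate 2 (1.53, adjusted p = 0.0575).

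Junb, whose protein can restrain JUN, was called higher than in the graft by edgeR on each day in the ileum and on none in the colon, and these calls depended on the setting. It had 3730.5, 2488 and 3838 normalized reads in the graft. The colon had 3185, 2416 and 2692 on day 4, 7973, 3565 and 3461 on day 8, and 5054, 4873, 2027 and 5421 on day 12. The ileum had 4652, 3926, 14856 and 4037 on day 4, 6319, 5488, 5729 and 2651 on day 8, and 7113, 5021, 7888 and 5076 on day 12. On day 4 all colon libraries were below all ileum libraries, with the colon inside or just under the graft range. The log2 fold change of Junb against the graft was 1.53 ± 0.46, 1.10 ± 0.45 and 1.37 ± 0.45 in the ileum on days 4, 8 and 12 (adjusted p = 0.00611, 0.0414 and 0.0125, edgeR). In the colon it was 0.05 ± 0.46, 0.81 ± 0.47 and 0.70 ± 0.44 (adjusted p = 0.936, 0.138 and 0.169, edgeR), and the colon value of day 4 turned sign under other settings. None of the ileum calls of Junb was made by limma (0.80, 0.54 and 0.89, adjusted p = 0.0967, 0.264 and 0.0652), and the day 8 call was also lost with library totals, with no filter and with all 4 colon day 8 libraries. In the colon on day 8 Junb was called with the compared groups alone (0.91, adjusted p = 0.0186, edgeR) and with all 4 colon day 8 libraries (1.54, adjusted p = 0.0166). The ileum day 4 call was lost with the compared groups alone (1.60, adjusted p = 0.0515, edgeR) and with the libraries of experiment 2 alone (0.76, adjusted p = 0.0943). Without ileum replicate 3 the day 4 call of Junb was lost (0.71, adjusted p = 0.0793, edgeR), as was the day 12 call without graft replicate 2 (1.18, adjusted p = 0.0679). The day 8 call of Junb was lost without any one of 6 libraries, which were all 3 of the graft and ileum replicates 1 to 3, with log2 fold changes of 0.90 to 1.23 and adjusted p of 0.054 to 0.161 (edgeR).

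Egr1, a zinc finger factor of monocyte differentiation and of acute stimulation, was close to absent from the graft with 9, 6 and 8 reads, or 25.3, 11.6 and 19.4 normalized reads. The colon had 3463, 3012 and 3721 on day 4, 6234, 3257 and 2371 on day 8, and 4562, 3397, 3144 and 7399 on day 12. The ileum had 3543, 3924, 7493 and 1919 on day 4, 3679, 2659.8, 4096 and 1723 on day 8, and 6095, 2958, 4324 and 3234 on day 12. Every engrafted library was far above every graft library, and each of the 6 engrafted groups overlapped with the other groups. The log2 fold change of Egr1 was 7.84 ± 0.64, 7.96 ± 0.64 and 8.32 ± 0.65 in the colon on days 4, 8 and 12, and 8.30 ± 0.65, 7.87 ± 0.64 and 8.28 ± 0.64 in the ileum, with adjusted p from 2.67e-10 to 7.65e-10 (edgeR). The lowest ratio of an engrafted library to the graft library of its own experiment was 153 in experiment 1, 75.9 in experiment 2 and 148 in experiment 3.

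Egr2, a related factor also known from tissue macrophages, had 1, 0 and 0 reads in the graft, which is under the limit of 3 counts. The colon had 68.1, 113 and 65.1 normalized reads on day 4, 206, 104 and 76.1 on day 8, and 130.4, 156, 122 and 193 on day 12. The ileum had 56.1, 128, 286 and 85.6 on day 4, 108, 43.8, 90.4 and 47.6 on day 8, and 299, 97.7, 151 and 97.6 on day 12. All 22 engrafted libraries were above the graft. Set against the mean of the graft libraries' limits of 3 counts, 7.17 normalized reads, the mean Egr2 level was at least 11.4-fold, 18.0-fold and 21.0-fold higher in the colon on days 4, 8 and 12. In the ileum Egr2 was at least 19.4-fold, 10.1-fold and 22.5-fold higher, and its adjusted p ranged from 2.99e-07 to 4.8e-06 over the 6 groups (edgeR).

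Atf3 encodes a stress-induced member of the ATF family that pairs with JUN proteins. Its graft libraries had 2338, 382 and 1549.9 normalized reads, from experiments 2, 3 and 1. The colon had 3791, 2988 and 2749 on day 4, 6889, 3218 and 2510.5 on day 8, and 5188, 3251, 3173 and 8462 on day 12. The ileum had 1591, 5446, 6949 and 1526 on day 4, 2681, 1578, 2928 and 873 on day 8, and 4969, 1684, 2366 and 1841 on day 12. All colon libraries were above the graft, while 6 of the 12 ileum libraries fell within its range. The log2 fold change of Atf3 was 1.49 ± 0.65, 1.80 ± 0.65 and 2.18 ± 0.64 in the colon on days 4, 8 and 12 (adjusted p = 0.0505, 0.0212 and 0.00483, edgeR). In the ileum it was 1.93 ± 0.63, 1.02 ± 0.61 and 1.43 ± 0.62 (adjusted p = 0.012, 0.167 and 0.0534, edgeR). With the experiment as a replicate block, Atf3 was called also in the colon on day 4 and in the ileum on day 12 (adjusted p = 0.0288 and 0.0372, edgeR). Its calls in the colon on day 8 and the ileum on day 4 were lost without graft replicate 2 (1.33 and 1.46, adjusted p = 0.103 and 0.0698, edgeR). They were also lost without colon day 8 replicate 2 (1.28, adjusted p = 0.121, edgeR) and without ileum day 4 replicate 3 (1.39, adjusted p = 0.059).

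Ier2, a nuclear protein of the growth factor response, was high in the graft with 3197, 2612 and 3255 normalized reads. The engrafted libraries had 649 to 5622 Ier2 reads with a median of 1767, and 17 of 22 were below all graft libraries on this scale. After the TMM scaling of edgeR no difference in Ier2 was called, with log2 fold changes of -0.32 ± 0.54 in the colon and 0.18 ± 0.51 in the ileum on day 4 (adjusted p = 0.626 and 0.789, edgeR). The ileum value was -1.36 with the day 4 libraries of experiment 2 alone (adjusted p = 0.0126, edgeR). Of the mapped reads, 68.7% to 70.5% fell on genes in the graft and 47.1% to 68.3% in the engrafted libraries.

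**Figure D3:**
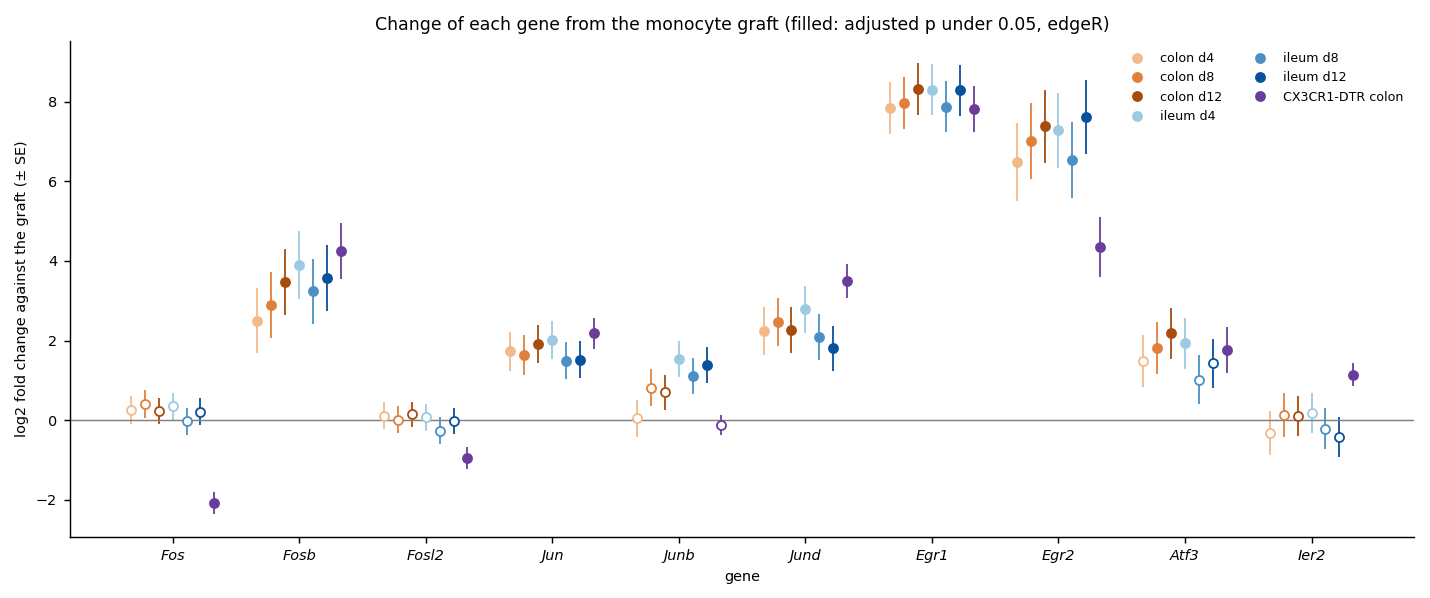
Fitted log2 fold change of each member against the graft (points, with bars of 1 SE) in the 6 groups of CD11c-DTR recipients and in CX3CR1-DTR colon, filled where the adjusted p was under 0.05 (edgeR). Egr1 lies near 8 in every group, Fosb, Jun and Jund lie above 1, and Fos and Fosl2 are filled in CX3CR1-DTR colon alone. The fitted values of Egr2 depend on a graft with a single read.

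Colon and ileum were set against each other on each day. None of the 10 members was called by edgeR on day 4, when 3.18% of genes were (377 genes), on day 8, when 35% were, or on day 12, when 32.5% were. The day 4 count of genes moved to 0 with the compared groups alone, 7 with all 4 colon day 8 libraries, 1080 with DESeq2, 1265 with the experiment as replicate block and 3067 with the ileum libraries of experiment 2 alone. At an unadjusted p under 0.05 there was 1 member on day 4 and 0 on days 8 and 12, while DESeq2 called 1, 0 and 0 members and limma called 0 on each day. That member was Junb, whose log2 difference (colon minus ileum) on day 4 was -1.49 ± 0.45 (adjusted p = 0.0625, edgeR). It was called by DESeq2 (adjusted p = 0.0179) and without ileum replicate 2 (-1.69, adjusted p = 0.0141, edgeR), and over all alternatives its adjusted p ran from 0.0141 to 0.26. Without ileum replicate 3, the shallowest library, the difference in Junb was -0.66 (adjusted p = 0.234, edgeR), and with the ileum libraries of experiment 2 alone it was -0.71 (adjusted p = 0.17). Within experiment 2, the one that holds day 4 libraries of both segments, mean Junb was 2939 normalized reads in the colon and 4344 in the ileum (2 libraries each). In the same libraries the log2 ratio of colon to ileum was 0.95 for Jun, 1.01 for Jund, 1.07 for Atf3 and 1.39 for Ier2, opposite in sign to their fitted differences of -0.29, -0.54, -0.43 and -0.50, none of which was called. Fos, Fosb and Egr1 also turned from fitted values below 0 to 0.29, 0.07 and 0.40. These ratios are per mapped reads, whereas the fit used TMM scaling. Scaled to reads on genes, Fos was 13382 and 13963 in these colon libraries and 18074 and 10175 in the ileum. Fosb was 1357 and 1689 against 2644 and 1052. On that scale the colon means of Fos and Fosb lay below the ileum means, as in the fit. Those of Jun, Jund, Egr1, Atf3 and Ier2 stayed above. The sign depended on the scale or the libraries, so no direction is given for these 7 members on day 4. On day 12 the log2 differences of the members ran from -0.67 for Junb to 0.76 for Atf3. None of these was called, and a missed threshold does not show that the segments were alike. Within experiments, mean Atf3 on day 12 was 3.08 times as high in the colon in experiment 1 and 4.6 times in experiment 3, with 1 library each, and 0.876 times in experiment 2, with 2 libraries each.

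Time was tested within each segment. None of the members was called by edgeR between days 4 and 8 or between days 8 and 12 in the colon, where 0% of all genes were called in both comparisons. None was called between days 4 and 8 in the ileum, where 5.13% of genes were (608 genes, and 0 with the experiment as replicate block, with the day 4 libraries of experiment 2 alone or with the compared groups alone), nor between days 8 and 12, where 0% were. The one member at an unadjusted p under 0.05 in these 4 comparisons was Egr2 in the ileum from day 8 to day 12, with a log2 difference of 1.09 ± 0.48 (adjusted p = 0.738, edgeR). From day 4 to day 8 in the ileum all 10 log2 differences were below 0, between -0.91 and -0.33, with adjusted p from 0.354 to 0.674 (edgeR). Ileum day 8 holds no library of experiment 1, and with the day 4 libraries of experiment 2 alone 8 of these 10 differences were above 0, up to 1.15 for Ier2, with none called. Among all genes, 204 passed an unadjusted p under 0.05 between colon days 4 and 8, 329 between colon days 8 and 12 and 796 between ileum days 8 and 12, and DESeq2 and limma also called 0 genes there. The segment difference changed from day 4 to day 12 by 0.11 to 1.29 on the log2 scale over the members, and none was called, against 0% of all genes. In that test 739 genes passed an unadjusted p under 0.05 and 0 of them were members, and DESeq2 called 16 genes and limma 0. Experiment 2 alone holds day 4 libraries of both segments, and there the log2 ratio of colon to ileum moved the other way. From day 4 to day 12 it went from 0.07 to -1.01 for Fosb and from 1.39 to -0.43 for Ier2. Per mapped reads, the scale of these ratios, it fell for every other member too. Scaled to reads on genes, the ratio of Fosl2 did not fall. On that scale Fosl2 was 670 and 493 in the colon and 638 and 578 in the ileum on day 4. On day 12 it was 877 and 471 against 627 and 720. The fit used TMM scaling, so no direction is given for the change of the segment difference.

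In the colon of CX3CR1-DTR recipients the members split. Compared with the graft, 7 of 10 were called higher, against 39.5% of the 11751 genes tested, and Fos and Fosl2 were called lower, against 35.9% of genes. Compared with CD11c-DTR colon of day 12, Jund and Ier2 were higher, against 25.3% of genes, and Fos, Fosl2, Junb and Egr2 were lower, against 35.5%. Egr2 passed the filter of this fit only through CD11c-DTR colon, so its calls in both comparisons are a description. Levels are given here per 10000000 reads on genes, since the second table holds no total of mapped reads. The recipients, the day of harvest and the count table differ together between these groups and cannot be told apart. The 7 members higher than in the graft were Fosb, Jun, Jund, Egr1, Egr2, Atf3 and Ier2, and the median log2 fold change was 1.98 over the members and 0.14 over all genes. The same graft libraries serve as control for both kinds of recipient.

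Fos had 16651, 8249 and 11398 reads per 10000000 in the graft and 13589, 10080.1, 8386 and 19278 in CD11c-DTR colon of day 12. The 6 CX3CR1-DTR libraries had 1608 to 3154 with a median of 2212. Each of them was below every graft and every CD11c-DTR colon library. The log2 fold change of Fos was -2.08 ± 0.28 against the graft and -2.48 ± 0.26 against CD11c-DTR colon (adjusted p = 8.64e-06 and 1.86e-06, edgeR). Fosl2 followed with 184 to 419 (median 296) in CX3CR1-DTR colon, below 539 to 753 in the graft and 471 to 877 in CD11c-DTR colon. Its log2 fold change was -0.95 ± 0.28 and -1.27 ± 0.26 in these comparisons (adjusted p = 0.00643 and 0.000657, edgeR). Fosb was 3284 to 9136 (median 4339.8) against 52.2 to 686 in the graft, a log2 fold change of 4.25 ± 0.70 (adjusted p = 6.84e-05, edgeR), so that these members of the family went opposite ways. Against CD11c-DTR colon, with 1900.4 to 5557, the Fosb difference was 0.62 ± 0.51 (adjusted p = 0.313, edgeR).

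Jund was 1977 to 7024 in CX3CR1-DTR colon with a median of 5262. It was 327 to 756 in the graft and 1481 to 3129 in CD11c-DTR colon, so that 5 of the 6 CX3CR1-DTR libraries were above all others. Its log2 fold change was 3.49 ± 0.43 against the graft and 1.06 ± 0.34 against CD11c-DTR colon (adjusted p = 4.27e-06 and 0.0132, edgeR), and the latter call was lost without colon day 12 replicate 3 (0.90, adjusted p = 0.0512). Ier2 was 6098 to 9315 (median 8103) in CX3CR1-DTR colon, above 3704 to 4733 in the graft. CD11c-DTR colon had 4935, 2648, 2567 and 6855, of which the last lay within the CX3CR1-DTR range. The Ier2 log2 fold change was 1.14 ± 0.29 and 0.87 ± 0.26 (adjusted p = 0.00237 and 0.00892, edgeR). Junb was 2959 to 4428 (median 3647), with a log2 difference of -1.0 ± 0.23 from CD11c-DTR colon (adjusted p = 0.00153, edgeR) and -0.11 ± 0.25 from the graft (adjusted p = 0.69). Jun, at 5735 to 12558 (median 8483), was above all graft libraries, with a log2 fold change of 2.18 ± 0.39 (adjusted p = 0.000142, edgeR). Its difference from CD11c-DTR colon was 0.10 ± 0.32 (adjusted p = 0.799, edgeR).

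Egr1 was 1847 to 7498 (median 4961) in CX3CR1-DTR colon, with the lowest value in replicate 1, and 16.5 to 36.8 in the graft. Its log2 fold change was 7.81 ± 0.58 against the graft (adjusted p = 2.21e-08, edgeR) and -0.69 ± 0.33 against CD11c-DTR colon (adjusted p = 0.0812). Egr2 was at 2, 4, 2, 12, 14 and 8 reads in the 6 libraries, or 13.6 to 36.4 per 10000000. CD11c-DTR colon had 191, 264, 217 and 343, all of them above every CX3CR1-DTR library. The Egr2 log2 difference was -3.24 ± 0.34 (adjusted p = 1.86e-06, edgeR). In this fit Egr2 passed the filter on low counts only through CD11c-DTR colon, the group where it was high, so the test is a description. The Egr2 mean of 25.2 was 2.44 times the mean of the graft's limits of 3 counts, 10.4 per 10000000. This is no lower bound, since replicates 1 and 3, with 2 reads each, were themselves under 3 counts. Atf3 was 1463 to 7999 (median 5912), with a log2 fold change of 1.77 ± 0.58 against the graft (adjusted p = 0.0122, edgeR), and its call was lost without graft replicate 2 (1.29, adjusted p = 0.0521). Replicate 1 was the lowest CX3CR1-DTR library for Egr1, Atf3 and Jund and the highest for Fosb.

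**Figure D4:**
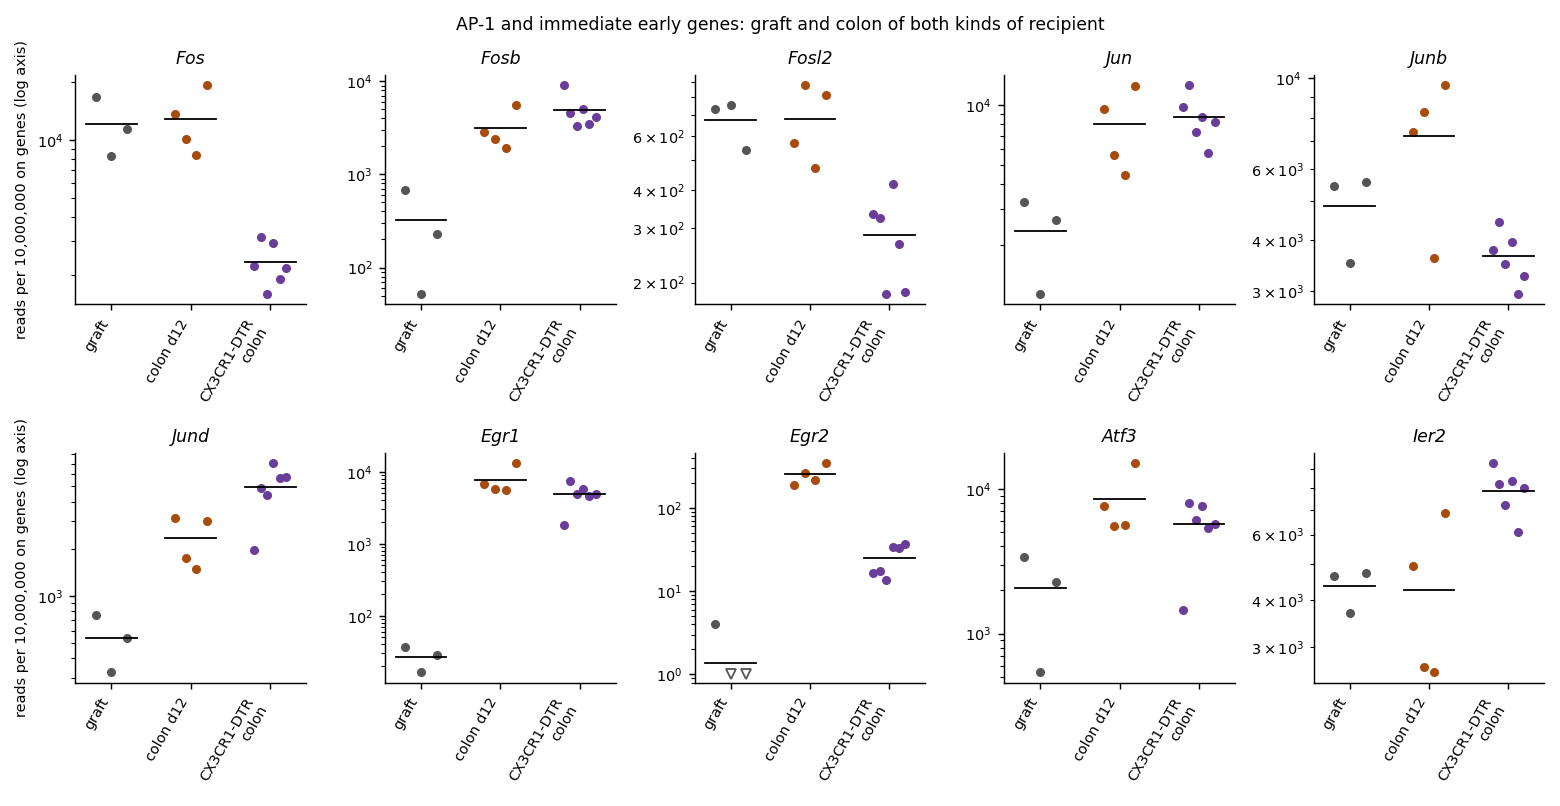
Reads per 10000000 reads on genes (log axes) of each member in the graft, in CD11c-DTR colon of day 12 and in CX3CR1-DTR colon, with a point for each library and a line for the mean of a group. Open triangles stand for libraries with no Egr2 read. All 6 CX3CR1-DTR libraries lie below all others for Fos and Fosl2, and between the graft and CD11c-DTR colon for Egr2.

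The heat shock and dissociation genes, a list of chaperones and co-chaperones known to respond to stress, were compared with the graft as the members were. Their sum was 23826 to 27656 reads per 10000000 reads on genes in the graft, 39802 to 54604 in the colon and 47482 to 59077 in the ileum on day 4, and 48590 to 61188 in CX3CR1-DTR colon. Of the 13 genes, 10 were called higher and none lower in the colon on day 4, against 35.9% and 24.5% of all genes, and 12 were called higher and none lower in the ileum, against 36.2% and 20.5%. Hspa1a and Hspa1b, near-identical copies of an inducible HSP70 gene between which reads may be split, rose by 6.24 ± 0.63 and 6.30 ± 0.65 on the log2 scale in the colon on day 4 (adjusted p = 1.55e-08 and 2.06e-08, edgeR). Hspa8, the constitutive HSP70 gene, was at -0.01 ± 0.26 (adjusted p = 0.972, edgeR). Between colon and ileum, whose collagenase times differ, none was called on day 4, against 3.18% of all genes in either direction. In the colon 1 was called lower on each of days 8 and 12, against 35% and 32.5% of all genes in either direction. In CX3CR1-DTR colon 9 were called higher and 2 lower than in the graft, against 39.5% and 35.9% of all genes. The part of digestion in the changes of the members was not tested.

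Of 28 further immediate early genes 26 were tested against the graft. Of these, 12 were called higher and 3 lower in the colon on day 4, and 18 were called higher and 3 lower in the ileum, against the same shares of all genes as above, with median log2 fold changes of 1.03 and 1.94. Klf4, a zinc finger factor also active in epithelium, rose by 1.28 ± 0.39 on the log2 scale in the colon on day 4 (adjusted p = 0.00697, edgeR), while in the ileum it was -1.14 ± 0.36 on day 8 (adjusted p = 0.01) and -0.82 ± 0.36 on day 12 (adjusted p = 0.0557). Zfp36, which encodes an mRNA decay factor, was at -0.56 ± 0.41 in the colon on day 4 (adjusted p = 0.245, edgeR). In CX3CR1-DTR colon none were called higher and 15 lower than in CD11c-DTR colon of day 12, of 27 tested, against 25.3% and 35.5% of all genes. The log2 difference was -3.57 ± 0.46 for Zfp36 (adjusted p = 1.26e-05, edgeR) and -1.87 ± 0.17 for Klf4 (adjusted p = 5.32e-07). Of the 13 other AP-1 family genes, 4 were called higher and 4 lower in the colon on day 4 and 6 were called higher and 4 lower in the ileum, against the same shares of all genes. Mafg, which encodes a small MAF protein, had a log2 fold change of -1.80 ± 0.25 in the colon (adjusted p = 1.95e-06, edgeR), and Atf4, of the integrated stress response, was at -0.06 ± 0.25 (adjusted p = 0.854).

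Among 23 tested kinases and SRF or CREB factors that act upstream, 4 were called higher and 8 lower in the colon on day 4, and 4 were called higher and 7 lower in the ileum, against 35.9% and 24.5% of all genes in the colon and 36.2% and 20.5% in the ileum. Mapkapk2, a kinase below p38, had a log2 fold change of -2.52 ± 0.42 in the colon (adjusted p = 1.65e-05, edgeR), and Mapk3, which encodes the kinase ERK1, one of 0.84 ± 0.37 (adjusted p = 0.0543). Map2k2, which encodes the kinase MEK2, and Rps6ka1, which encodes a kinase below ERK, were at 0.03 ± 0.17 and -0.43 ± 0.26 (adjusted p = 0.893 and 0.152, edgeR). Of 8 tested feedback inhibitors 5 were called higher and none lower in the colon on day 4, and 6 were called higher and none lower in the ileum, against these shares of all genes, with median log2 fold changes of 2.30 and 2.90. Spry1, an inhibitor of receptor tyrosine kinase signalling, rose by 3.68 ± 0.68 on the log2 scale in the colon on day 4 (adjusted p = 6.15e-05, edgeR). Dusp6, a phosphatase of ERK, was at 0.92 ± 0.44 in the colon on day 4 (adjusted p = 0.0733, edgeR) and rose by 1.5 ± 0.43 in the ileum (adjusted p = 0.00451). In CX3CR1-DTR colon none were called higher and 5 lower than in CD11c-DTR colon, of 9 tested, against the shares of all genes given for that comparison. Nab1, a corepressor of EGR proteins, had a log2 difference of -4.84 ± 0.33 there (adjusted p = 4.39e-08, edgeR), and Dusp6 one of -3.34 ± 0.38 (adjusted p = 3.44e-06).

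Among 5568 other genes with at least 200 normalized reads on average, the genes that followed the mean of the members most closely over the 22 engrafted libraries included Btg2 (Pearson r = 0.91), Trib1 (0.86), Gdf15 (0.80) and Klf6 (0.80). For Egr1 alone they were Btg2 (0.85), Nr4a1 (0.77), Ccnl1 (0.77), Dnajb1 (0.76) and Dusp1 (0.76). Btg2, an antiproliferative immediate early gene, ranged from 1434 to 5936 normalized reads in the engrafted libraries and averaged 949 in the graft. Dnajb1, on the heat shock list, ranged from 343 to 2335. These libraries share depth, cell makeup and experiment, and the correlations are a description.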

How the data were processed

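RNA of sorted cells was sequenced as 3′ tags with a MARS-seq derivative. The authors demultiplexed with bcl2fastq, aligned with HISAT 0.1.6 and counted exon reads per gene with HOMER on mm9, and per the file headers both deposited tables hold raw counts on the plus strand with isoforms condensed. Whether molecular identifiers were collapsed is not given in the sources used here. Columns that could be tied to no sample (52) and colon day 8 replicate 1 were not used. All 6 labelled CX3CR1-DTR libraries were used, although the study's sample table states 4 repeats, and day 14 is taken from that table. Counts were scaled to 10000000 mapped reads, or reads on genes where CX3CR1-DTR libraries enter. Genes with 50 normalized reads in 3 libraries were tested with edgeR 4.0.16 (R 4.3.3; TMM, quasi-likelihood, Benjamini-Hochberg) in 1 model of 25 libraries in 7 groups and 1 of 13 libraries in 3 groups. DESeq2 1.42.0, limma 3.58.1 on log2(normalized reads + 50) and the other settings of the closing section were alternatives, and the steps were tested on simulated data. In that simulation of colon day 4 against the graft, 19% of 100 genes with a log2 change of 1 were called. At a log2 change of 2, 78% of 100 genes were called, and 0.07% of unchanged genes were. Changes of about 1 on the log2 scale are therefore mostly missed. Label dates mark 3 experiments, which served as the block, and experiments are shared across groups unevenly. Nothing says that the libraries of a group came from separate mice, so p-values measure only the spread between these samples. No 2 libraries of a group were alike within sampling noise (51 pairs, lowest chi-square per degree of freedom 4.72). Intervals and limits of 3 counts cover counting error only. The members and lists were chosen with earlier results of these data known. Named genes were the members, the 4 of each list with the highest mean level, and the genes most like the members, of which 1 is not reported here. The CRE-like motif was added after the promoters had been searched.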

Additional observations from a re-analysis of the deposited data

Results flagged for a closer look

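In the groups of 4 or 6 libraries, a library at one end stood far from the rest of its group in 5 of 50 tests. Chance gives about 1 in 20 for a single test. The 50 tests share libraries, so that rate does not apply to their count. In ileum day 4, replicate 3 was highest for Fosb (6129 normalized reads, next 1245), Junb (14856, next 4652) and Jund (4405, next 1193), and this was the shallowest library used, with 591817 reads on genes. In colon day 12, replicate 3 was lowest for Junb (2027, next 4873). In CX3CR1-DTR colon, replicate 1 was highest for Fosb (9136 reads per 10000000 reads on genes, next 5044).

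The change from the graft differed between CX3CR1-DTR colon and CD11c-DTR colon of day 12 for 6 members, which is the direct comparison of these groups. In that comparison 25.3% of all genes were called higher and 35.5% lower, so the count is not particular to the members. The log2 difference was -2.48 for Fos, -1.27 for Fosl2, -1.0 for Junb and -3.24 for Egr2, and 1.06 for Jund and 0.87 for Ier2. Egr2 passed the filter of this fit only through CD11c-DTR colon. Recipient, harvest day and count table cannot be told apart here.

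The colon day 8 library that was left out (replicate 1, experiment 1) was above the highest graft library for 9 members. Its normalized reads were 13742 for Fos, 6495 for Fosb, 8481 for Jun, 13460.1 for Junb, 1047 for Jund, 5126 for Egr1, 349 for Egr2, 8891 for Atf3 and 3362 for Ier2. Its heat shock sum of 86503 and leukocyte sum of 47141 per 10000000 reads on genes were above those of the 3 colon day 8 libraries used. So was its macrophage sum of 140660, against 8624 to 30059. Its epithelial sum of 109719 was below theirs, at 214865 to 221099. The marker ranges given for the colon do not include this library.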

How the results depend on the processing

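No member called against the graft changed sign in any setting tried. Outside leave-one-out, 399 fold changes kept direction and side of the threshold, 12 lost the call, 9 gained it and 12 turned sign, none of the last called in the main comparison. On day 4 in the colon the signs turned for Junb (-0.10 with library totals, -0.26 with limma), Fosl2 (-0.0405 and -0.21) and Fos (-0.0428 with limma). On day 4 in the ileum they turned for Fosl2 (-0.0033 with library totals, -0.33 with limma, -0.22 with experiment 2 alone), Fos (-0.0727 with limma) and Ier2 (-0.76 with limma, -0.16 with the experiment as replicate block, -1.36 with experiment 2 alone). With each library left out in turn, the log2 fold change ranged from -0.15 to 0.17 for Junb and from -0.0934 to 0.29 for Fosl2 on colon day 4, and from -0.0948 to 0.17 for Fosl2 and from -0.78 to 0.51 for Ier2 on ileum day 4. Without 1 library the members called against the graft were 4 to 6, 5 to 6 and 6 in the colon on days 4, 8 and 12 and 5 to 7, 4 to 6 and 3 to 7 in the ileum, the 3 being without graft replicate 2. Between colon and ileum on day 4, DESeq2 called 1 member, Junb, and leave-one-out gave 0 to 1. The replicate block gave Atf3 1.74 on colon day 4 and 1.56 on ileum day 12, both then called, and changed no other call of a member against the graft. With the ileum day 4 libraries of experiment 2 alone the calls of Junb (0.76, adjusted p = 0.0943, edgeR), Atf3 (0.52, 0.502) and Jun (0.98, 0.0606) were lost. The cause was not tested. Library totals in place of TMM moved the median of all genes on colon day 4 from 0.21 to 0.06. Reads on genes are a smaller total than mapped reads, so every level rises when counted per reads on genes. By this change of unit 60 of 70 mean levels moved by over 1 SD. In the shallowest library 3 counts equal 27.6 normalized reads, which limits Egr2 most.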

Other observations

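The markers of other cell types were summed in the same libraries, as reads per 10000000 reads on genes. The 5 monocyte markers, which mark the cells transferred, were at 54607 to 67757 in the graft, 241 to 594 in CD11c-DTR colon, 220 to 4019 in the ileum and 164 to 531 in CX3CR1-DTR colon. The 7 fibroblast markers were at 0 to 8 in the graft, 814 to 6970 in CD11c-DTR colon, 405 to 8433 in the ileum and 851 to 5359 in CX3CR1-DTR colon. The 5 endothelial markers were at 110 to 169 in the graft and 238 to 6695 in the ileum. The 5 T cell markers reached 1080 and the 4 B cell markers 2055 in the ileum, against at most 108 and 84 in the colon of either kind of recipient. The part of such cells in the levels of the members was not tested.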
